A study of Mus musculus with 10 samples.

Results

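The heat shock chaperones described here are 10 genes chosen by name: Hspa1a, Hspa1b, Hspa8, Hsph1, Dnajb1, Hsp90aa1, Hspb1, Hspd1, Hspe1 and Bag3. All 10 were found among the 34745 genes of the deposited table, and all 10 were among the 12264 genes that passed the filter on low counts. The RNA came from peritoneal lavage cells, the leukocytes and shed lining cells washed from the abdominal cavity, of mice with sepsis caused by cecal ligation and puncture (CLP). The 10 libraries are 5 labelled AX, read here as amlexanox, and 5 labelled NC, read here as vehicle. The labels leave these abbreviations unexplained, and the sources used here do not give mouse strain, age, dose or sampling time. All 10 libraries share the CLP operation, so there was no comparison with uninjured mice. Amlexanox is an anti-inflammatory drug, and TBK1 and IKKε, kinases of innate immunity, are among its known targets.

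Heat shock proteins are chaperones that bind unfolded or newly made proteins, keep them from clumping and help them to fold. When proteins are damaged by heat, oxidation or inflammation, the transcription factor HSF1 is released from chaperones, binds heat shock elements in DNA and raises the transcription of the inducible members. HSP70 proteins work in cycles with J-domain partners, which deliver clients, and with exchange factors such as HSP110 and BAG proteins, which release nucleotide.

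Total counts per library ran from 10221170 to 13806885, and a member had between 91 counts (Hspa1b in NC 3) and 14025 counts (Hspa8 in AX 6). Levels are normalised read counts (CPM, the count as a share of the library with TMM scaling), and each mean carries its SD over 5 libraries. Neutrophil and macrophage markers were present in every library, with summed levels of 6177 to 12030 CPM for 12 neutrophil markers and 2318 to 4471 CPM for 13 macrophage and monocyte markers. AX 6 and NC 1 stood apart in markers of lining and connective tissue: 10 mesothelial markers summed to 2593 CPM in AX 6 and 1088 CPM in NC 1, while the remaining 8 libraries held 118.6 to 373.9 CPM. Gut epithelium markers (6 genes) were also high in these libraries, at 394.2 CPM in NC 1 and 165.1 CPM in AX 6, as well as in NC 4 at 166.7 CPM, and lay between 9.28 and 42.4 CPM in the remaining 7. In bulk RNA, fewer cells of a type and less RNA per cell cannot be told apart.

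The chaperones did not differ between AX and NC beyond the spread between libraries. With the quasi-likelihood test of edgeR, 0 of 10 members passed an adjusted p of 0.05, as did 0 of 12264 genes (0%), and 0 of 10 had an unadjusted p under 0.05, against 113 genes or 0.921% of all tested. DESeq2, limma-voom and limma-voom with library quality weights also called 0 genes, with 193, 132 and 380 genes at an unadjusted p under 0.05. The groups overlapped for every member, while 17 genes (0.139%) had no overlap. The fitted value was higher in AX for 9 of 10 members, against 53.6% of all genes tested, and the median log2 fold change of the members was 0.32, against 0.02 over all genes. That count rested on 2 libraries: 4 of 10 members were higher in AX without AX 6 (median -0.10), and 5 of 10 without AX 10 (median 0.03). It was 6 of 10 when libraries were scaled by total counts alone and 4 of 10 with library quality weights.

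**Figure D1:**
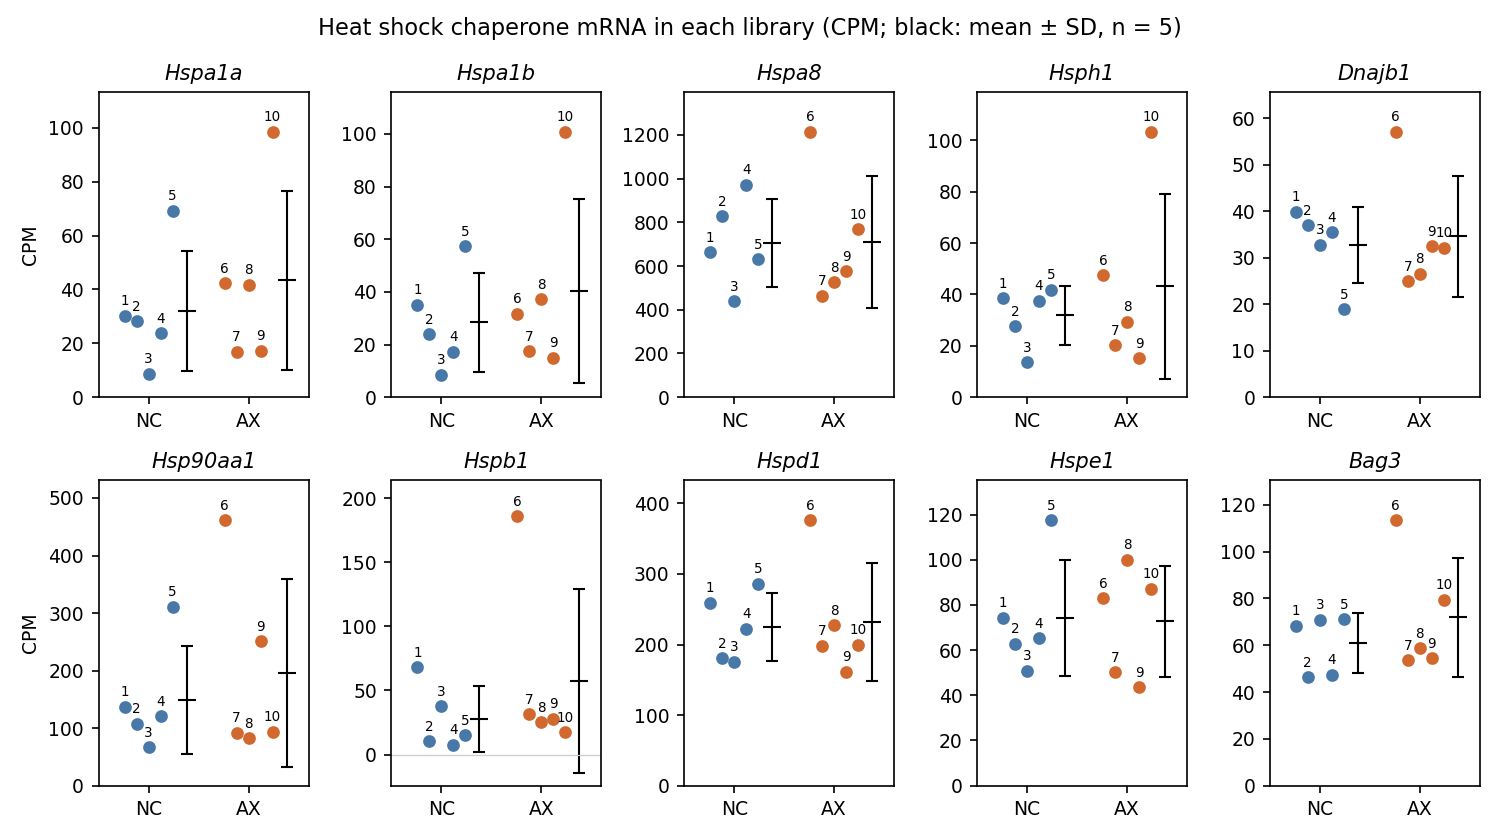
CPM of the 10 chaperone genes (vertical axes, linear, each with its own range) in the NC libraries (blue) and the AX libraries (orange), numbered by library, with the mean and SD in black. AX 6 was the highest library for 6 genes and AX 10 for 3, and the groups overlapped in every panel.

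The chaperones did not all peak in the same library. AX 6 held the highest level of 6 members (Hspa8, Dnajb1, Hsp90aa1, Hspb1, Hspd1 and Bag3), AX 10 that of 3 (Hspa1a, Hspa1b and Hsph1), and NC 5 that of Hspe1. NC 3 held the lowest level of 5 members. Together the 10 mRNAs made up 0.0825% of all counts in NC 3 and 0.239% in AX 6, and their summed level was 1502 ± 659 CPM in AX and 1368 ± 279 CPM in NC (SD, n = 5 each).

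**Figure D2:**
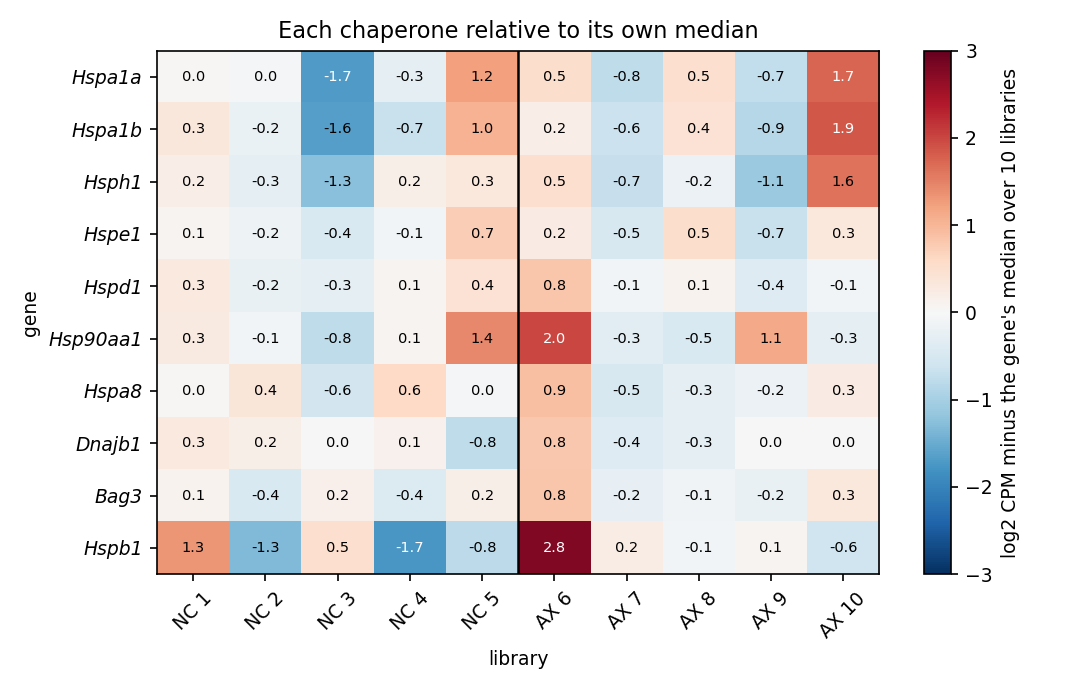
log2 CPM of each chaperone (rows) in each library (columns, NC left of the black line), as the difference from that gene's median over 10 libraries. Hspa1a, Hspa1b and Hsph1 were highest in AX 10 and lowest in NC 3, while Hspb1 was highest in AX 6 and NC 1.

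The inducible HSP70 genes Hspa1a and Hspa1b encode nearly the same protein, the classical chaperone that cells make on heat or proteotoxic stress. Hspa1a (ENSMUSG00000091971) lies on chromosome 17 from 34969190 to 34972156 of mm10 on the minus strand, and Hspa1b (ENSMUSG00000090877) from 34956436 to 34959238 on the same strand, with 9951 bases between them. Each is a protein-coding gene with a single exon. The first 250 bases before the start of each gene are shown because these copies differed little in sequence and in level across libraries. The letters come from RefSeq on GRCm38.p6, and capitals mark GAANNTTC, a short form of the heat shock element, the repeat that HSF1 binds.
Hspa1a, chr17:34972157-34972406, minus strand: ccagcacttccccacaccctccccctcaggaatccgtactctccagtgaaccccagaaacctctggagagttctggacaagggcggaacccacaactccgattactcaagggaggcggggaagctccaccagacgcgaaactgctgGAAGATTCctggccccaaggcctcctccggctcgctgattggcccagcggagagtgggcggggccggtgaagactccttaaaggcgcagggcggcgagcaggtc
Hspa1b, chr17:34959239-34959488, minus strand: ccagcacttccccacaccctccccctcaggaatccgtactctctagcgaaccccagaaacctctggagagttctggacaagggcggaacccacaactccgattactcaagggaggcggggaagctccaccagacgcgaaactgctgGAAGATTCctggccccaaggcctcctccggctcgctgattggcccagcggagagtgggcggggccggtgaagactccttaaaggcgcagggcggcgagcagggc
The copies differed at 3 of these 250 bases, and the short form stood at the same place in both, from 104 to 97 bases before the start. Of all 50-base stretches of the Hspa1a transcript, 58.8% also occurred unchanged in the Hspa1b transcript, and the share was 47.1% for 100 bases and 38.1% for 150 bases. Reads from these shared stretches could not be assigned with certainty. The other stretches were compared with Hspa8 alone, so other matches in the genome remain possible. The sources used here give neither the read length nor how shared reads were counted. None of the stretches of 50 bases occurred in the transcript of Hspa8, the constitutive relative.

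Hspa1a stood at 30.2, 28.3, 8.64, 23.8 and 69.2 CPM in NC 1 to NC 5 and at 42.4, 16.9, 41.8, 17.2 and 98.6 CPM in AX 6 to AX 10. Hspa1b stood at 35.2, 23.98, 8.45, 17.2 and 57.3 CPM in NC 1 to NC 5 and at 31.7, 17.5, 37.1, 15.0 and 100.8 CPM in AX 6 to AX 10. For both, AX 10 and NC 5 were the top libraries, 1 from each group, and NC 3 was lowest, 11.4-fold and 11.9-fold below AX 10. The mean of Hspa1a was 43.4 ± 33.3 CPM for AX and 32.0 ± 22.4 CPM for NC. Its log2 fold change was 0.44, with -0.84 to 1.71 as the 95% interval (adjusted p = 1.0 with edgeR). For Hspa1b the log2 fold change was 0.51, from -0.79 to 1.81. Exact permutation of the group labels (two-sided) gave p = 0.540 for Hspa1a and 0.524 for Hspa1b (n = 5 each), where the smallest p this design allows is 0.00794. With the counts of the copies summed, which removes the uncertain split but not a loss of shared reads, the log2 fold change was 0.47 (SE 0.58). Without AX 10 the values turned to -0.12 for Hspa1a and -0.17 for Hspa1b. The share of Hspa1a in the summed counts ran from 46.2% in NC 1 (exact 95% interval 42.6 to 49.8%) to 58.0% in NC 4 (53.5 to 62.3%). These intervals cover counting error only.

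Hsph1 encodes HSP110, a nucleotide exchange factor that releases clients from HSP70. It lies on chromosome 5 from 149614287 to 149636376 on the minus strand. Its level was 38.5, 27.6, 13.6, 37.6 and 41.8 CPM in NC 1 to NC 5 and 47.4, 20.2, 29.4, 15.1 and 103.3 CPM in AX 6 to AX 10. AX 10 was 2.18-fold above the next library, AX 6. AX 6 also lay above the NC range, and the other 3 AX libraries lay inside it. The log2 fold change was 0.44, with -0.67 to 1.55 as the 95% interval, and it turned to -0.19 without AX 10. Near its start 2 runs of heat shock repeats were found, the second with 3 repeat units, shown with flanks and with the repeats in capitals.
Hsph1, chr5:149636356-149636375, minus strand: gaatctTTCTCGAAggctcg
Hsph1, chr5:149636287-149636306, minus strand: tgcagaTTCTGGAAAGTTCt

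Hspa8 encodes HSC70, the constitutive HSP70 that folds new proteins and takes part in chaperone-mediated autophagy. The gene lies on chromosome 9 from 40800984 to 40805200 on the plus strand. It was the most abundant member by counts, at 662.9, 826.6, 438.9, 971.3 and 630.0 CPM in NC 1 to NC 5 and 1214, 464.6, 525.6, 575.8 and 769.4 CPM in AX 6 to AX 10. The group means were nearly equal, 709.9 ± 304.0 CPM for AX and 705.9 ± 202.4 CPM for NC, although the libraries of each group differed by more than 2-fold. The log2 fold change of 0.01 had a 95% interval from -0.66 to 0.67, which spans folds from 0.635 to 1.59. Without AX 6 it was -0.27.

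Dnajb1, an HSP40 that stimulates the ATPase of HSP70, stood at 18.9 to 39.9 CPM in NC (median 35.5) and 24.9 to 57.1 CPM in AX (median 32.2), with AX 6 highest and NC 5 lowest. Its log2 fold change was 0.08, with a 95% interval from -0.53 to 0.68, and became -0.18 without AX 6. NC 5 thus held the lowest Dnajb1 and the second highest Hspa1a. Dnajb1 lies on chromosome 8 from 83608175 to 83611902 and Bag3 on chromosome 7 from 128523616 to 128546981, both on the plus strand. Bag3, a co-chaperone that binds HSP70 and small heat shock proteins and sends damaged proteins to autophagy, stood at 68.3, 46.2, 71.0, 47.4 and 71.1 CPM in NC 1 to NC 5 and 113.4, 53.5, 58.7, 54.6 and 79.4 CPM in AX 6 to AX 10. Only AX 6 and AX 10 lay above the NC range, and the other 3 AX libraries lay inside it. The log2 fold change of Bag3 was 0.24, from -0.30 to 0.79, and 0.02 without AX 6.

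Hsp90aa1 encodes the inducible cytosolic HSP90, which matures kinases and steroid receptors, from chromosome 12 between 110690605 and 110702728 on the minus strand. It stood at 137.1, 107.7, 67.0, 120.9 and 310.7 CPM in NC 1 to NC 5 and at 461.2, 92.3, 82.4, 251.0 and 93.5 CPM in AX 6 to AX 10. The libraries AX 6, NC 5 and AX 9 lay at 251.0 CPM or more, and the other 7 lay at 137.1 CPM or less. The log2 fold change was 0.40, with -0.82 to 1.62 as the 95% interval, and turned to -0.20 without AX 6. AX 10, the library highest in Hspa1a and Hspa1b, was among the low libraries for Hsp90aa1. The constitutive partner Hsp90ab1 was at 1150 ± 366 CPM for AX and 946 ± 170 CPM for NC (log2 fold change 0.28, SE 0.25). In AX 9, a high library for Hsp90aa1, Hsp90ab1 was at its lowest, 676 CPM.

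**Figure D3:**
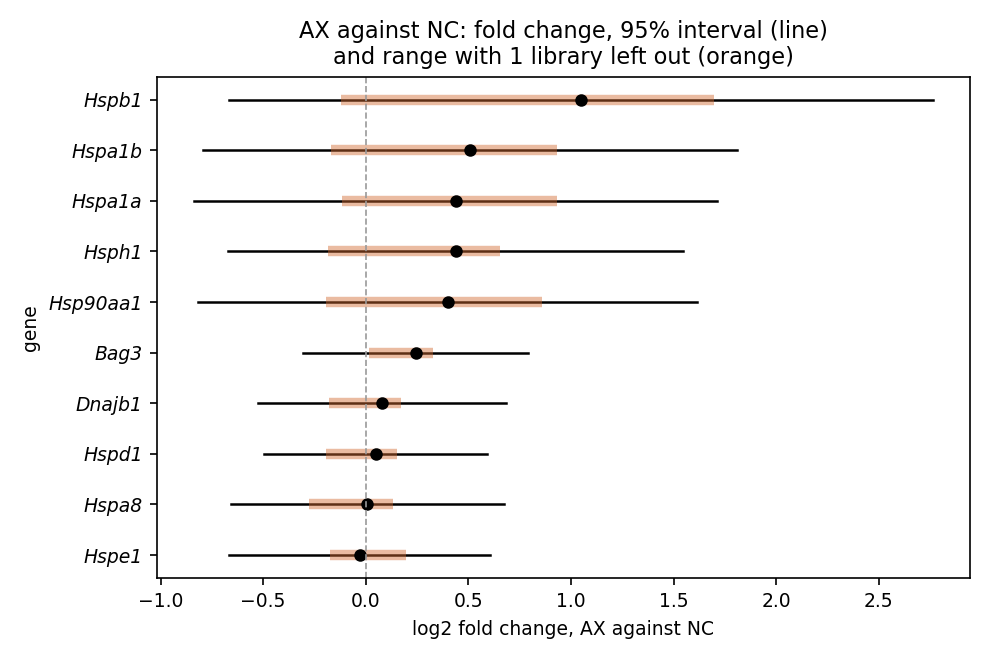
log2 fold change of each chaperone in AX against NC (horizontal axis), with its 95% interval as a black line and the range of values obtained with 1 library left out as an orange band. Every interval crossed 0, and the orange band crossed 0 for all genes but Bag3, which ran from 0.02 to 0.33.

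The mitochondrial chaperonin is a barrel of HSP60, encoded by Hspd1, closed by a lid of HSP10, encoded by Hspe1. The genes lie head to head on chromosome 1, Hspd1 from 55077835 to 55088243 on the minus strand and Hspe1 from 55088132 to 55091307 on the plus strand, and their annotated spans overlap by 112 bases. A run of 4 alternating heat shock repeat units, shown in capitals, lay from 89 to 72 bases before the RefSeq start of Hspe1, inside the annotated span of Hspd1. The same run, read on the other strand, fell from 144 to 127 bases before the second RefSeq start of Hspd1, and the window of its first start held no such form.
Hspe1, chr1:55088053-55088082, plus strand: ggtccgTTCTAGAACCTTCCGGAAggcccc
Hspd1 stood at 259.6, 180.3, 175.9, 222.7 and 286.3 CPM in NC 1 to NC 5 and at 376.1, 198.1, 227.4, 161.5 and 199.6 CPM in AX 6 to AX 10. Hspe1 stood at 74.4, 62.8, 51.0, 65.4 and 117.5 CPM in NC 1 to NC 5 and at 82.9, 50.2, 99.97, 43.6 and 87.1 CPM in AX 6 to AX 10. The top library was AX 6 for Hspd1 and NC 5 for Hspe1, and AX 9 was lowest for both. Neither differed between groups, with log2 fold changes of 0.05 (95% interval -0.50 to 0.59) and -0.03 (-0.66 to 0.61). The ratio of Hspd1 to Hspe1 in deposited FPKM ran from 1.42 in AX 8 to 2.84 in AX 6. Its size depends on the gene lengths used. The FPKM imply 1738 bases for Hspe1, against 774 bases for its longest basic transcript.

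Hspb1 encodes a small heat shock protein that holds unfolding clients and steadies actin filaments, and it is known to be abundant in epithelial, muscle and connective tissue cells. It was the most variable member, at 68.2, 10.4, 37.9, 7.60 and 15.3 CPM in NC 1 to NC 5 and at 185.8, 31.3, 25.4, 28.1 and 17.5 CPM in AX 6 to AX 10. AX 6 was 24.4-fold above NC 4 and 2.72-fold above the next library, NC 1, and the other AX libraries lay within the NC range. The means were 57.6 ± 71.9 CPM for AX and 27.9 ± 25.5 CPM for NC. The log2 fold change was 1.05, with -0.67 to 2.76 as the 95% interval (adjusted p = 1.0 with edgeR). Without AX 6 it was -0.12, without NC 1 it was 1.697, and without both libraries 0.53. The gene lies on chromosome 5 from 135887919 to 135889563 on the plus strand. Its first 250 upstream bases are shown for comparison with the HSP70 copies, with 2 separate short forms of the heat shock element in capitals.
Hspb1, chr5:135887669-135887918, plus strand: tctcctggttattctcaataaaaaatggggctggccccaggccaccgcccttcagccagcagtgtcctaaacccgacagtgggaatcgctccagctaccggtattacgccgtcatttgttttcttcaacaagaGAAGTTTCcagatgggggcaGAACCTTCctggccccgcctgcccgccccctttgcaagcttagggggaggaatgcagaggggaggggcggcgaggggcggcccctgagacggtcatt

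Hspb1 moved across libraries with markers of stromal cells, the fibroblasts and matrix-making cells of connective tissue. The 7 stromal markers summed to 2738 CPM in AX 6 and 1115 CPM in NC 1, while the remaining 8 libraries held 218.1 to 664.6 CPM. On the log2 scale Pearson's r with Hspb1 was 0.969 (permutation p = 4e-05, adjusted p = 0.0032) and Spearman's rho 0.927 (permutation p = 0.00035, adjusted p = 0.028) over 10 libraries, and r was 0.886 without AX 6 and NC 1. Within groups, as deviations from the group means, r was 0.966. With the mesothelial markers r was 0.880 (permutation p = 0.00138, adjusted p = 0.0552), and 0.495 without AX 6 and NC 1. With the gut epithelium markers r was 0.400 (permutation p = 0.254, adjusted p = 0.597). These relations belong to 80 computed between 10 members and 8 marker lists, of which only that of Hspb1 with the stromal list passed on both measures after adjustment. The relations were added after the data were seen, and the adjustment does not cover that choice. All 7 stromal markers and all 10 mesothelial markers had higher fitted values in AX, with median log2 fold changes of 0.54 and 1.06. For the mesothelial sum AX 6 alone lay above the NC range: the other AX libraries held 123.4 to 373.9 CPM against 118.6 to 1088 CPM in NC, and the group medians were 278 CPM in AX and 287 CPM in NC. For the stromal sum AX 6 was also the only AX library above the highest NC value, the 1115 CPM of NC 1. Stromal medians leaned towards AX, however: 557 CPM against 347 CPM for NC. With AX 6 and NC 1 set aside, stromal sums spanned 307.9 to 664.6 CPM for AX and 218.1 to 527.1 CPM for NC, and these ranges overlapped. The part of stromal or lining cells in the level of Hspb1 was not tested. Of 4 other small heat shock protein genes tested, 2 were higher and 2 lower in AX. Cryab, which encodes αB-crystallin, stood at 297 CPM in AX 6, at 148 CPM in NC 1 and between 13.2 and 45.7 CPM elsewhere. Hspb8 stood at 148 CPM in AX 6, at 50.4 CPM in NC 1 and between 1.72 and 17.9 CPM elsewhere. Hspb11 (log2 fold change -0.11) ranged only from 1.89 CPM in NC 5 to 3.62 CPM in NC 1, with 3.55 CPM in AX 6.

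**Figure D4:**
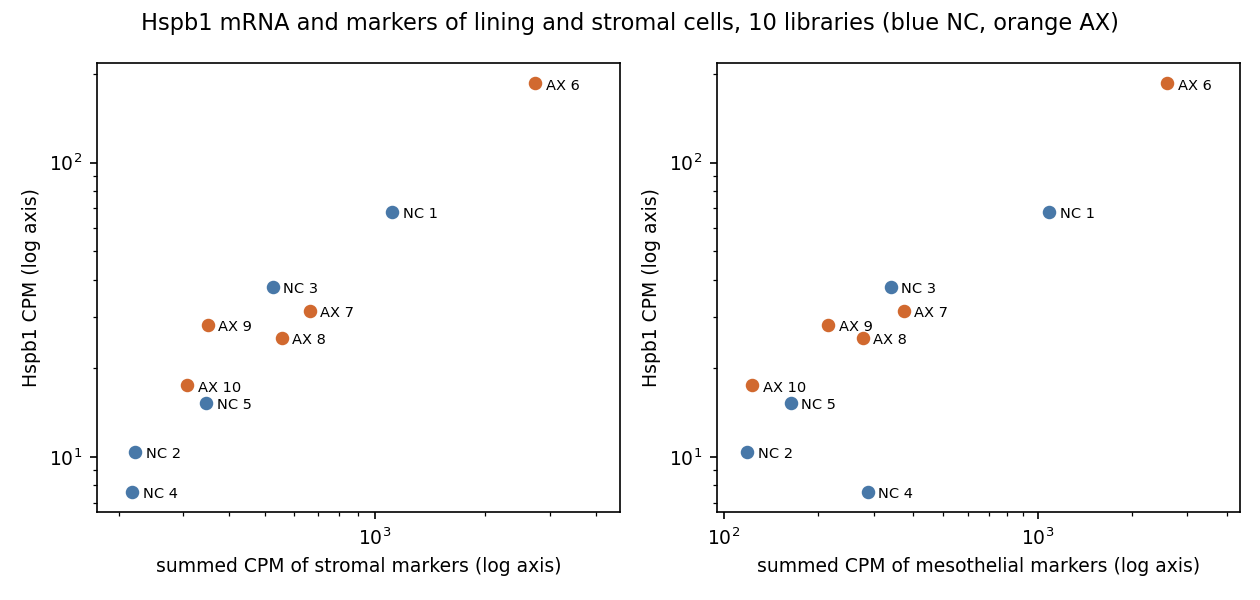
Hspb1 CPM (vertical axis, log scale) against the summed CPM of 7 stromal markers (left) and 10 mesothelial markers (right, both log scale) in 10 libraries, NC in blue and AX in orange. AX 6 and NC 1 lie at the upper right of both panels, with Hspb1 at 185.8 and 68.2 CPM.

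Members were compared with each other to see which varied together. Of 45 pairs, 38 had a positive Pearson's r, with a median of 0.421, and 5 passed an adjusted p of 0.05. Hspa1a and Hspa1b had r = 0.978 (permutation p = 4e-05, adjusted p = 0.0018) and rho = 0.927 (permutation p = 0.00033, adjusted p = 0.0142), which the shared reads of the copies also touch. Hspa1a and Hsph1 had r = 0.900 (permutation p = 0.00059, adjusted p = 0.0133) and rho = 0.915 (permutation p = 0.00063, adjusted p = 0.0142), and r was 0.751 without NC 3 and AX 10, the libraries farthest from the median. Hspa1a and Hspe1 had r = 0.845 (permutation p = 0.00238, adjusted p = 0.0268) and rho = 0.879 (permutation p = 0.00167, adjusted p = 0.0250), and r rose to 0.966 without NC 3 and AX 10. Hspa1b gave r = 0.890 with Hsph1 (adjusted p = 0.0133 by permutation), where rho did not pass (0.818, adjusted p = 0.0569). Without NC 3 and AX 10 that r was 0.682. With Hspe1, Hspa1b gave r = 0.808 (adjusted p = 0.0434 by permutation, rho 0.867, adjusted p = 0.0252), and 0.936 without NC 3 and AX 10. All 5 pairs hold Hspa1a or Hspa1b, so they are not separate relations, and the shared reads can touch each of them. Within groups these 5 values of r ran from 0.840 to 0.977.

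Other members that are known to work together did not pass. Hspd1 and Hspe1, barrel and lid of the chaperonin, had r = 0.676 (permutation p = 0.0298, adjusted p = 0.149) and rho = 0.794 (adjusted p = 0.0605). Their r was 0.684 without NC 5 and AX 6, the libraries farthest from the median of Hspd1. It was 0.853 without AX 6 and NC 1, and 0.595 with total counts alone. Hspa1a and its J-domain partner Dnajb1 had r = -0.117 (permutation p = 0.757, adjusted p = 0.852). Hspb1 and its binding partner Bag3 had r = 0.756 (permutation p = 0.0125, adjusted p = 0.0940), which fell to 0.272 without NC 4 and AX 6.

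By a rule of the highest r over 10 libraries among 7790 genes with a mean log2 CPM of at least 3, the genes most like the summed Hspa1a and Hspa1b counts, other than members, were Cep57 (r = 0.935), Mrpl12 (0.907), Pura (0.886), Sf3a3 (0.879) and Taok3 (0.869). Taok3, which encodes a protein kinase, reached 57.2 CPM in AX 10, 44.5 CPM in NC 5 and 38.7 CPM in AX 8, and lay between 3.34 and 9.85 CPM elsewhere. Mrpl12, a protein of the mitochondrial ribosome, reached 117 CPM in NC 5 and 105 CPM in AX 10, and lay between 47.2 and 81.7 CPM elsewhere. For the summed Hspd1 and Hspe1 counts the nearest genes were Chchd4 (r = 0.941), which encodes a mitochondrial import receptor, Ran (0.941), Otud6b (0.940), Psph (0.940) and Eef1d (0.935). These values describe likeness and carry no test.

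Levels can be compared between genes only per length, and the result depended on the length used. By deposited FPKM, Hspa8 (median 76.8) and Hspd1 (74.0) were highest and did not separate, Hspd1 being higher in 6 of 10 libraries, and Hspe1 followed at 42.3, below Hspd1 in all 10. Bag3 (24.7), Hsp90aa1 (18.3), Hspb1 (14.7), Dnajb1 (14.5), Hspa1a (11.2) and Hspa1b (10.01) came next, and Hsph1 was lowest at 3.01. Among these, no gene from Bag3 to Hspa1a lay above the next in more than 7 of 10 libraries. The gene length implied by the deposited FPKM was 9084 bases for Hspa8 and 11284 bases for Hsph1, against 2394 and 3802 bases for their longest basic GENCODE M21 transcripts. Implied lengths were also longer for Hspe1 (1738 against 774 bases), Hsp90aa1 (6571 against 3281) and Hspb1 (1833 against 930). With transcript lengths, Hspa8 had 270.0 CPM per kilobase (median), above Hspe1 (90.3) and Hspd1 (87.2) in all 10 libraries. Hspe1 and Hspd1 did not separate on this scale, Hspe1 being higher in 4 of 10 libraries. Hsph1 had 8.81, close to Hspa1a (9.85).

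The start regions were searched for heat shock elements in the 8 members with a RefSeq promoter entry, from 250 bases before to 50 after each start. The forms searched were GAANNTTC and TTCNNGAA, each its own reverse complement, and the 3-unit forms GAANNTTCNNGAA and TTCNNGAANNTTC, which are reverse complements of each other and contain both shorter forms. At least 1 shorter form occurred in 7 of 8 members, against 17.0% of 27025 genes with such windows. These 7 are not separate sequences: the windows of Hspa1a and Hspa1b differed at 4 of 300 bases, and Hspd1 and Hspe1 share their run. The members were also chosen by name as heat shock genes, so the share describes that choice and tests nothing. A 3-unit form occurred in Hsph1, Hspd1 and Hspe1, the last 2 sharing the same bases, against 0.662% of all genes. No form occurred in the windows of Dnajb1, which says only that these letters are not there. Bag3 held a single shorter form, after its start. A match describes letters and is no evidence of binding in these cells.

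**Figure D5:**
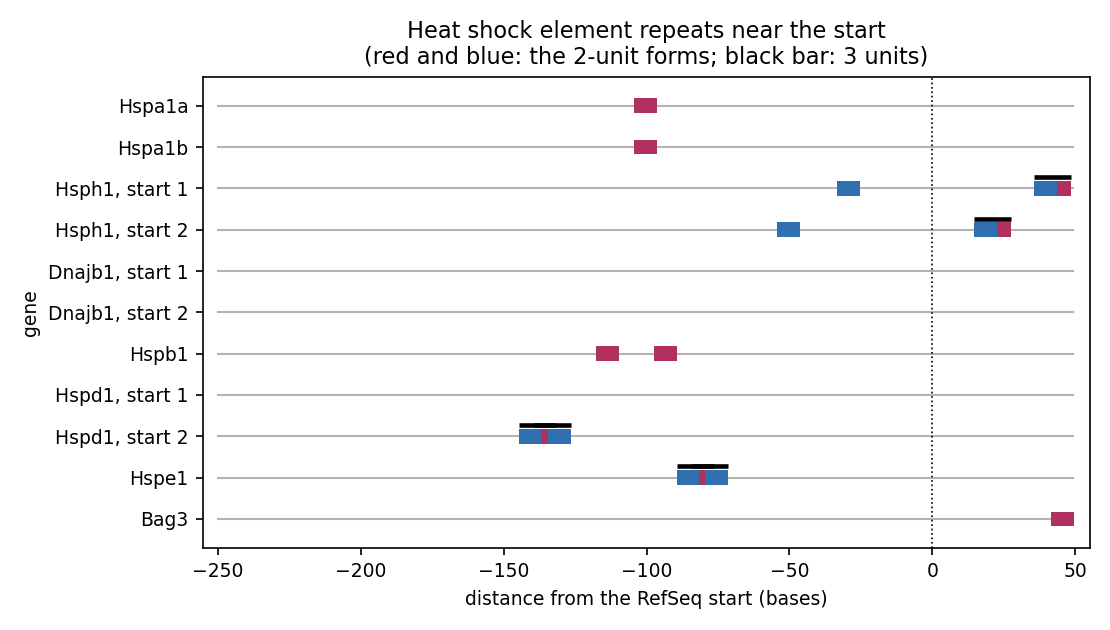
Position of heat shock repeats (horizontal axis, bases from the RefSeq start; red GAANNTTC, blue TTCNNGAA, black bars 3-unit forms) in the start regions of 8 chaperone genes, with a row for each annotated start. The 3-unit forms stand in Hsph1, in the second start of Hspd1 and in Hspe1.

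No tested gene of the wider chaperone lists passed the threshold either, and 0 of all 12264 genes tested did. Of 9 tested relatives in the HSP70 family, 5 were higher and 4 lower in AX (median log2 fold change 0.05), and 0 passed. The mitochondrial HSP70 gene Hspa9 was at 409.5 ± 175.3 CPM for AX and 351.1 ± 96.2 CPM for NC, and the exchange factor gene Hspa4 at 117.8 ± 79.7 against 107.9 ± 21.7 CPM. Hspa2 had the smallest p of this list, at 6.87 ± 2.31 against 4.72 ± 1.71 CPM (log2 fold change 0.54, SE 0.32). J-domain protein genes were higher for 8 and lower for 10 of 18 (median -0.04), with Dnaja1 at 79.8 ± 35.8 against 69.7 ± 10.8 CPM. Dnaja1, a J-domain partner of HSC70, was highest in AX 10 at 142 CPM, and lay between 54.1 and 80.0 CPM elsewhere. Among co-chaperones, 8 were higher and 10 lower of 18 (median -0.03), with Stip1, the bridge between HSP70 and HSP90, at 122.6 ± 46.0 against 104.0 ± 25.9 CPM. The cytosolic chaperonin and prefoldin list had 10 of 14 higher (median 0.05), and mitochondrial chaperones and proteases 9 of 12 (median 0.18). Of the heat shock factors, Hsf1 was at 10.9 ± 2.27 against 11.6 ± 3.16 CPM and Hsf2 at 24.8 ± 8.86 against 18.9 ± 7.28 CPM.

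Chaperones of the endoplasmic reticulum, which fold secreted proteins, were lower in AX for 12 of 15 genes, with a median log2 fold change of -0.14, against 46.4% of all genes lower and a median of 0.02. None of the 15 passed, and 0 had an unadjusted p under 0.05. The count of lower genes was not repeated with libraries left out. Creld2, a gene of endoplasmic reticulum stress, was at 125.4 ± 39.6 CPM for AX and 176.0 ± 41.4 CPM for NC (log2 fold change -0.49, SE 0.26), with 66.1 CPM in AX 6. Dnajc3, a J-domain protein of the same compartment, was at 133.1 ± 20.6 against 163.8 ± 26.97 CPM. The exceptions included Hspa5, the HSP70 of this compartment also known as BiP, at 234.2 ± 119.8 against 188.9 ± 86.5 CPM. AX 6 was the lowest library for the genes with the smallest p in this list: Creld2 (66.1 CPM), Dnajc3 (108 CPM) and Dnajb11 (141 CPM). NC 1 was the lowest NC library for each of them.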

How the data were processed

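Polyadenylated RNA of 10 samples was sequenced after preparation with a VAHTS Universal V6 kit, per the labels' protocols. Reads were aligned with HISAT2 2.0.4, and the build is mm10, per the submitters' processing notes. The sources used here do not name the counting tool, the annotation or the use of strand. Library totals ran from 10221170 to 13806885 counts. The deposited raw counts are whole numbers, not normalised, and the authors' deposited FPKM divide them by a gene length and the library total. In all 45 pairs, libraries differed beyond sampling noise (chi-square over degrees of freedom, 42.5 to 337). No label assigns the samples to separate animals, so p-values measure only how these samples vary, which may be technical.

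Counts were fitted over all genes in R 4.3.3 with edgeR 4.0.16 (filterByExpr, TMM, quasi-likelihood F test, Benjamini-Hochberg, no covariates). Simulated counts of the same design (12101 genes tested) gave back 59 of 100 planted 4-fold changes and 8 of 100 planted 2-fold changes, beside 4 false calls. Single genes were also compared by exact permutation of log2(CPM + 0.5), and relations across libraries by 100000 permutations, in Python 3.11.15. Promoter sequences are RefSeq's on GRCm38.p6, and transcripts GENCODE M21's. Alternatives used DESeq2 1.42.0, limma 3.58.1, other scalings and filters, log2(FPKM + 1) and left-out libraries. Members and lists were chosen with earlier results of these data known. Named genes are the members, up to 3 genes with the smallest p in each pathway list, a few preset ones, and the 5 most like 2 references. Cryab, Hspb8 and Hspb11 fall under this rule. The relations with marker lists were added after the data were seen.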

Additional observations from a re-analysis of the deposited data

Results flagged for a closer look

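In 4 of the 20 sets of 5 values, the end library lay far from the others by Dixon's ratio of gap to range. The sets were 10 members in 2 groups. The ratio was taken on CPM, not on log2 values, with a critical value of 0.71. For independent sets of normally distributed values, chance flags about 1 in 20. CPM values can be skewed and the members share libraries, so the 4 sets cannot be held against that rate. In AX, AX 6 was highest for Hspb1 (ratio 0.918, 185.8 CPM against 31.3 CPM for the next AX library) and for Dnajb1 (0.765, 57.1 against 32.5 CPM). AX 10 was highest for the HSP70 gene Hspa1b (0.742, 100.8 against 37.1 CPM). In NC, NC 5 was highest for Hsp90aa1 (0.712, 310.7 against 137.1 CPM).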

How the results depend on the processing

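No paired analysis was possible because the replicate numbers of AX (6 to 10) and NC (1 to 5) are not shared. The number of genes called was 0 under every alternative that kept all libraries and without AX 6 and NC 1 together, and 0 to 1 with 1 library left out; the exception was Rnf24, chosen after its values were seen, which passed with a lower AX value once NC 3 was left out (adjusted p = 0.0174 with edgeR). No member passed under any alternative; the smallest unadjusted p was 0.0552, for Hspb1 without NC 1. Several members changed sign. With library quality weights the log2 fold changes were -0.0828 (Hspa1a), -0.38 (Hspa8), -0.31 (Hsph1), -0.15 (Dnajb1) and -0.14 (Hspd1). With total counts alone they were -0.0829 (Hspa8), -0.00877 (Dnajb1) and -0.0391 (Hspd1), with limma on log2(FPKM + 1) -0.0907, -0.0041 and -0.0471, and with limma-voom -0.0282 for Hspa8. Without AX 6 and NC 1 together they were -0.30 (Hspa8), -0.10 (Dnajb1), -0.22 (Hsp90aa1) and -0.14 (Hspd1). The difference of mean log2 CPM under total counts alone was -0.0032 for Dnajb1 and -0.0476 for Hspd1. With 1 library left out, the fitted log2 fold changes ran from -0.12 to 0.93 (Hspa1a), -0.17 to 0.93 (Hspa1b), -0.27 to 0.13 (Hspa8), -0.19 to 0.65 (Hsph1), -0.18 to 0.17 (Dnajb1), -0.20 to 0.86 (Hsp90aa1), -0.12 to 1.7 (Hspb1), -0.20 to 0.15 (Hspd1), -0.18 to 0.20 (Hspe1) and 0.02 to 0.33 (Bag3). Differences of mean log2 CPM then ran from -0.25 to 0.10 (Hspa8), -0.21 to 0.48 (Hsph1), -0.14 to 0.16 (Dnajb1), -0.17 to 0.54 (Hsp90aa1), -0.18 to 0.13 (Hspd1) and -0.17 to 0.14 (Hspe1). The cause of these changes was not tested. The median standard error over all genes was 0.317 on the log2 scale, and that of the members ran from 0.25 (Hspd1) to 0.78 (Hspb1). In simulated counts 8 of 100 planted 2-fold changes and 59 of 100 planted 4-fold changes were found. Most changes of 2-fold, and many of 4-fold, would thus have been missed.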

Other observations

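Immediate early genes are those that cells induce within minutes of handling or stimulation. They were lowest in the library with the most Hspa1a and high in the library with the least. They were highest in AX 6, however, where Hspa1a was 42.4 CPM, above its median of 29.2 CPM over 10 libraries. The 8 listed genes (Fos, Fosb, Jun, Junb, Egr1, Atf3, Ier2 and Nr4a1) summed to 6809 CPM in AX 6 and 6254 CPM in NC 3, and to 2455 CPM in AX 10, their lowest. NC 3 had the lowest Hspa1a (8.64 CPM) and AX 10 the highest (98.6 CPM). Over 10 libraries Pearson's r between the summed level and Hspa1a was -0.538 (permutation p = 0.108, adjusted p = 0.389 over 80 relations) and Spearman's rho -0.455 (permutation p = 0.192, adjusted p = 0.662), and r was -0.753 without NC 3 and AX 6. The relation did not pass. The macrophage and monocyte markers had r = -0.800 with Hspa1b (permutation p = 0.00496, adjusted p = 0.132) and -0.725 without AX 8 and AX 10, which also did not pass.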
